A study of Mus musculus with 10 samples.

Results

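The genes described here are 10 genes of the response to bone morphogenetic protein (BMP) signaling, namely Id1, Id2, Id3, Id4, Smad6, Smad7, Smad9, Atoh8, Msx1 and Msx2. They were found by gene symbol, and each was held by 1 of the 24016 RefSeq transcripts of the table, which carry 24009 symbols. RNA-Seq was done on liver of 10 male C57BL/6 mice aged 8–12 weeks, taken on day 6 after gene transfer through the tail vein. The 5 AdVEGF mice were given a serotype 5 adenovirus that expresses VEGF-A165 from the CMV promoter, and the 5 AdCMV mice were given the empty adenovirus, which has the CMV promoter and no transgene. Both groups were therefore exposed to virus, and no liver without virus was compared. The CMV promoter is not restricted to a cell type, and the whole tissue was sequenced after removal of ribosomal RNA.

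BMPs are secreted ligands of the TGFβ family that bind pairs of type I and type II serine/threonine kinase receptors. The receptors phosphorylate Smad1, Smad5 and Smad9 (also called Smad8), which join Smad4, enter the nucleus and bind DNA beside their target genes. Among the targets that respond in many cell types are the Id genes and the inhibitory Smads, so the level of these mRNAs is widely read as a sign of BMP-SMAD activity. In the liver, BMP6 and BMP2 from endothelial cells act on hepatocytes to control hepcidin, the hormone of iron balance, while BMP9 and BMP10 act on endothelial cells through ALK1.

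Promoter sequences were looked up in RefSeq (GRCm38.p6) and were found for 8 of the 10 genes, the exceptions being Id1 and Smad7. Each window holds 250 bases before and 50 bases after the start of the gene. Letters of 3 kinds known from SMAD binding sites were searched for on both strands. The first is GGCGCC, the second is GCCGNCGC, where N is any base, and the third is GTCTAGAC, a palindrome of the Smad box. GGCGCC stood in the windows of Id2, Id4 and Smad9, 3 of 8 genes, and in 11.9% of all 32851 windows. GCCGNCGC stood in those of Id4, Smad9, Atoh8, Msx1 and Msx2, 5 of 8 genes, and in 9.76% of all windows. GTCTAGAC stood in the window of Smad6 and in 0.213% of all windows, 70 in number. The 8 windows were rich in G and C, from 60.0% to 73.7% with a median of 66.5% against 52.7% over all windows. Of the 8123 windows in that range, 27.0% held GGCGCC, 22.9% GCCGNCGC and 0.209% GTCTAGAC. A match is a description of letters and not a bound site. The sequences below are those of the gene with GTCTAGAC, of the 3 genes with GGCGCC, and of Msx2, the member that was not called in the comparison of the groups. Each runs 5′ to 3′ along the gene's own strand from position −250 to position 10, where 1 is the first base of the gene, and capitals mark the matches.
Smad6, chr9:64022050-64022309, minus strand: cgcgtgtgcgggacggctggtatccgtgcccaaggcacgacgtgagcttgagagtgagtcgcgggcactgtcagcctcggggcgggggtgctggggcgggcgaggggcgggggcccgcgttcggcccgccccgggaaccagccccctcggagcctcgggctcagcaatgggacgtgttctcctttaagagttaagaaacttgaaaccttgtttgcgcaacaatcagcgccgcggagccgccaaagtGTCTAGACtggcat
Smad9, chr3:54755332-54755591, plus strand: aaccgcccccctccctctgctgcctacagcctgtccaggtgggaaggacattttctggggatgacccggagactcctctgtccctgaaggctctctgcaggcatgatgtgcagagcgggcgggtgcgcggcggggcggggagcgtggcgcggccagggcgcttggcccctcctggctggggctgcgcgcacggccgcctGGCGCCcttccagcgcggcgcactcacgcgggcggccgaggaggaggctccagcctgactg
Id2, chr12:25096083-25096342, minus strand: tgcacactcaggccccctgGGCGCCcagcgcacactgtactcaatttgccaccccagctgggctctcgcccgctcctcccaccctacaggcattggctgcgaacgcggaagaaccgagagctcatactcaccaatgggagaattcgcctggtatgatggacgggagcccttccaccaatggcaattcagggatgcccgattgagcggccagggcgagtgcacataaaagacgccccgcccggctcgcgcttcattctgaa
Id4, chr13:48260866-48261125, plus strand: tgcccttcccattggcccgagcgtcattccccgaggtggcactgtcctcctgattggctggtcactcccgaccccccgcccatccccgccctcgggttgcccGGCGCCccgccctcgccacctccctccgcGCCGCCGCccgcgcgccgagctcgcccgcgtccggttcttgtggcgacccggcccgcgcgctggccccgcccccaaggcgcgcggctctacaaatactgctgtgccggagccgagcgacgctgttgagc
Msx2, chr13:53472771-53473030, minus strand: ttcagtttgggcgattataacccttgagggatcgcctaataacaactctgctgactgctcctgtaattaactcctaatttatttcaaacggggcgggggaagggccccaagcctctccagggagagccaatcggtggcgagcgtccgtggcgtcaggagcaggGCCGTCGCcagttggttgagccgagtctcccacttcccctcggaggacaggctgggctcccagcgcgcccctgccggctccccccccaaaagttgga
The GTCTAGAC of Smad6 spans the start of the gene, from position −4 to 4. The GGCGCC match lies at −51 to −46 in Smad9, at −148 to −143 in Id4 and at −231 to −226 in Id2. In Id4 the GCCGCCGC at −119 to −112 and in Msx2 the GCCGTCGC at −87 to −80 are matches to GCCGNCGC.

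The values are RPKM, reads scaled to the length of the transcript and to the mapped tags of the library, as the authors deposited them. The number of mapped tags, recovered from the steps of the values, was 5758960 to 13494002 in the AdCMV libraries and 5596571 to 8133954 in the AdVEGF libraries, so that 3 reads on a transcript of 1 kb gave between 0.222 and 0.536 RPKM. The 21 Mup genes, a family of near-identical urinary protein genes of hepatocytes, took 18.0% to 50.5% of the reads in AdCMV libraries and 7.84% to 28.6% in AdVEGF libraries. RPKM is a share of a library, and the log2 fold change of the median gene was 0.38, so each member is also given after median-ratio scaling, which brings that median to −0.01. Hepatocyte markers such as Alb, Apoa1 and Ttr were the most abundant of the marker genes, with a summed level over 9 markers of 18968 to 23110 RPKM in AdCMV and 31617 to 40120 RPKM in AdVEGF livers. The Vegfa transcript had a mean of 18.1 RPKM in AdCMV and 31.8 RPKM in AdVEGF livers, a log2 fold change of 0.82 with an adjusted p of 0.00487 by limma, and whether reads of the vector are counted in it was not tested.

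In AdVEGF livers 9 of the 10 genes were upregulated and none was downregulated. A gene was called when the adjusted p of limma was under 0.05 and the log2 fold change, on log2(RPKM + 0.1), was over 1 or under −1, among genes whose mean reached over 0.5 RPKM in AdCMV or AdVEGF livers. All 10 passed that limit on low values, but Id4 was near it, and Msx1 and Msx2 passed it only through their mean in AdVEGF livers. Of the 13933 genes tested, 13.0% were called higher. On deposited RPKM there was no overlap between the groups for 8 of the 10 genes, with every AdVEGF mouse above every AdCMV mouse, against 14.3% of genes tested. The median log2 fold change of the 10 genes was 1.67, and 1.28 after median-ratio scaling. After that scaling 8 of the 10 were called higher, against 7.63% of the genes tested. Over all genes 89.4% of the calls were higher on deposited RPKM and 70.4% after scaling. Id1, Smad6, Smad7, Smad9 and Msx1 are in the heatmap that the study drew from these samples, so their direction is not independent evidence. In RNA of whole tissue, more cells of a type and more RNA per cell cannot be told apart.

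**Figure D1:**
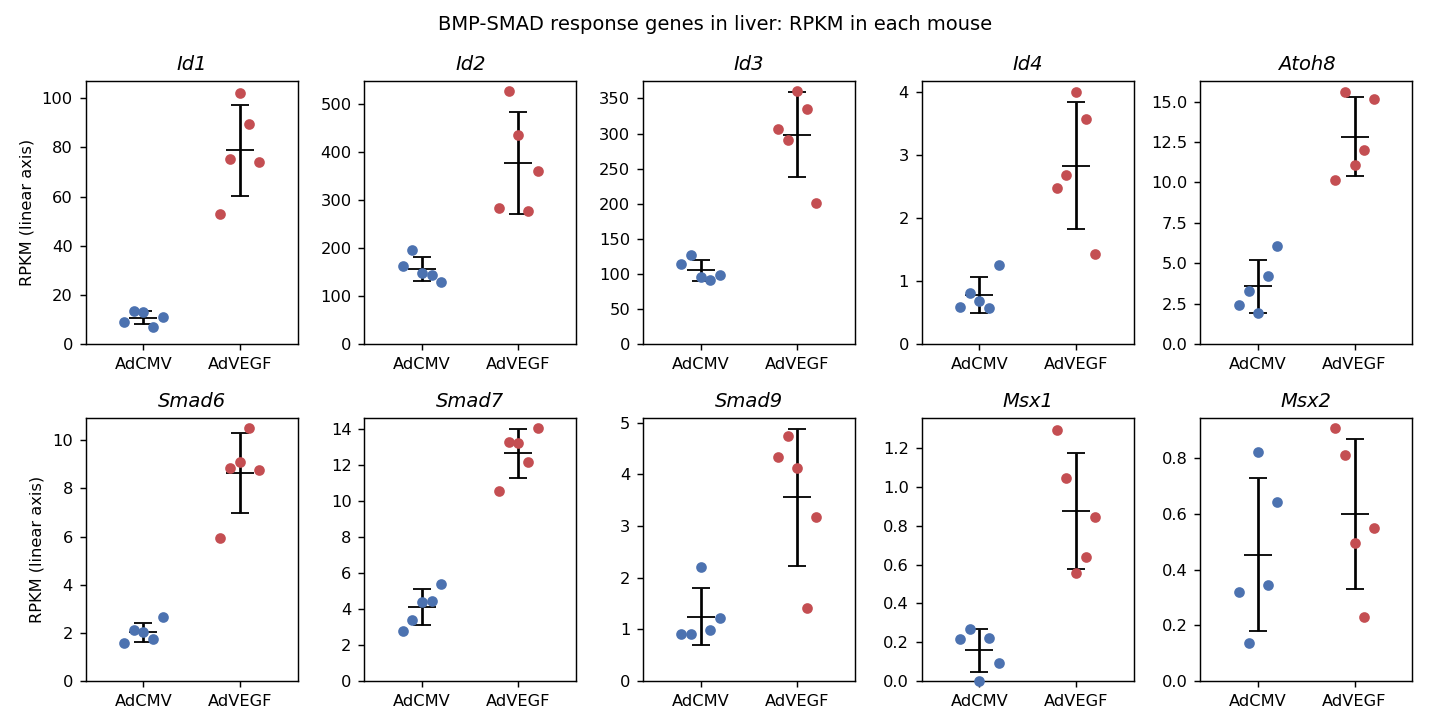
RPKM of the 10 genes in each mouse (points), with the mean and SD of 5 mice per group, on linear axes that start at 0 and differ between genes. The AdVEGF points lie above all AdCMV points in every panel but those of Smad9, where AdCMV replicate 3 is above AdVEGF replicate 4, and Msx2.

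The Id genes encode helix-loop-helix proteins without a DNA-binding domain, which pair with E proteins and keep them from DNA. Id1 changed most among the 10 genes. In the AdCMV livers, replicates 1 to 5, Id1 (NM_010495, mm9 chr2:152561987-152563146) was at 9.21, 13.5, 13.1, 7.18 and 11.2 RPKM. In the AdVEGF livers it was at 53.0, 75.3, 102, 89.4 and 74.0 RPKM. The lowest AdVEGF mouse was far above the highest AdCMV mouse. This was a log2 fold change of 2.85 ± 0.23 (SE, n = 5 per group; adjusted p = 1.69e-07, limma), or 7.22-fold, and 2.45 after scaling. A smaller log2 fold change was found for 99.0% of the genes tested.

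Id2 (NM_010496, chr12:25778664-25780957) was the most abundant member in both groups. Its level was 162, 195, 148, 144 and 129.6 RPKM in the AdCMV livers and 284, 528, 436, 277 and 361 RPKM in the AdVEGF livers. On deposited RPKM the groups did not overlap, and AdVEGF replicates 2 and 3 were the highest. The log2 fold change was 1.25 ± 0.22 (SE; adjusted p = 0.000518, limma). After median-ratio scaling it was 0.84 (adjusted p = 0.0280), under the limit of 1 for a call. With that scaling AdVEGF replicate 4 fell below AdCMV replicate 2, so the groups overlapped.

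Id3 (NM_008321, chr4:135699737-135701307) is, like Id1, an early target of BMP receptors in endothelial cells. It was at 114, 127, 95.2, 91.0 and 98.9 RPKM in the AdCMV livers. In the AdVEGF livers it was at 306, 291, 361, 334 and 201 RPKM, with replicate 5 the lowest and still above all AdCMV mice. Its log2 fold change was 1.49 ± 0.20 (SE; adjusted p = 4.05e-05, limma), and 1.09 after scaling (adjusted p = 0.00206), which is again a call but close to the limit.

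Id4 (NM_031166, chr13:48356796-48359405) was scarce. Its level was 0.584, 0.806, 0.690, 0.577 and 1.26 RPKM in the AdCMV livers, from 7 to 18 reads, and 2.47, 2.685, 3.995, 3.57 and 1.44 RPKM in the AdVEGF livers, from 16 to 48 reads. The groups did not overlap, but the highest AdCMV mouse and the lowest AdVEGF mouse, both replicate 5, were close to each other. The log2 fold change was 1.70 ± 0.31 (SE; adjusted p = 0.000629, limma), and 1.33 after scaling (adjusted p = 0.00211). The antisense transcript A330033J07Rik overlaps Id4 and had 0 to 7 reads, and no use of strand in the counting is stated in the sources used here, so reads of the overlap cannot be told apart.

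The summed level of the Id genes had a median of 257 RPKM (241 to 336) in AdCMV livers and of 704 RPKM (638 to 904) in AdVEGF livers, with no overlap. Within that sum the share of Id1 was 3.99% ± 0.909 (SD, n = 5) in AdCMV and 10.4% ± 2.02 in AdVEGF livers. Id2 made up 57.1% ± 2.05 and 49.4% ± 8.28, Id3 38.6% ± 1.72 and 39.7% ± 7.74, and Id4 0.295% ± 0.129 and 0.371% ± 0.112 of the sum. The share of Id1 was higher in all 5 AdVEGF mice than in any AdCMV mouse, and Id2 and Id3 still made up most of the sum.

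A ratio of 2 genes within a library does not depend on the scaling between libraries, and 8 such ratios were compared with a two-sided exact permutation test over the 10 mice, whose smallest p is 0.00794. The log2 ratio of Id1 to Id2 was −4.13, −3.84, −3.49, −4.30 and −3.52 in the AdCMV livers and −2.42, −2.81, −2.09, −1.63 and −2.29 in the AdVEGF livers. The groups did not overlap, and the difference was 1.61 (95% interval 1.05 to 2.21; exact p = 0.00794, 0.0127 after Benjamini-Hochberg adjustment over the 8 ratios). Id1 to Id3 differed likewise, by 1.36 (0.80 to 1.82; exact p = 0.00794, adjusted 0.0127), with all 5 AdVEGF mice above all AdCMV mice. Id3 to Id2 differed by 0.24 (−0.34 to 0.82; exact p = 0.341, adjusted 0.390), an interval that does not tell these genes apart and is wide because the AdVEGF ratios ran from −0.86 to 0.27.

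Smad6 and Smad7 encode the inhibitory Smads, which block the receptors and the receptor-regulated Smads and form a negative feedback. Smad6, which acts mainly on the BMP branch, rose about 4.11-fold. Smad6 (NM_008542, chr9:63800883-63869866) was at 1.58, 2.12, 2.01, 1.75 and 2.635 RPKM in the AdCMV livers and at 5.94, 8.855, 9.10, 10.5 and 8.77 RPKM in the AdVEGF livers. The lowest AdVEGF mouse, replicate 1, was above every AdCMV mouse. The log2 fold change was 2.04 ± 0.22 (SE; adjusted p = 3.16e-06, limma), and 1.65 after scaling (adjusted p = 3.76e-05). This is the gene with GTCTAGAC at its start in the sequences above.

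Smad7, which acts on the BMP and the TGFβ branch, rose as well. Smad7 (NM_001042660) was at 2.80, 3.41, 4.41, 4.42 and 5.40 RPKM in the AdCMV livers and at 10.6, 13.3, 13.2, 12.2 and 14.1 RPKM in the AdVEGF livers. The AdVEGF mice lay close together and apart from all AdCMV mice. Smad7 had a log2 fold change of 1.63 ± 0.21 (SE; adjusted p = 1.80e-05, limma), and 1.24 after scaling (adjusted p = 0.000401). The log2 ratio of Smad6 to Smad7 was −0.79, −0.66, −1.09, −1.29 and −1.01 in the AdCMV livers and −0.82, −0.58, −0.53, −0.21 and −0.68 in the AdVEGF livers. These overlapped, and the difference of 0.40 (0.05 to 0.77; exact p = 0.0397) did not pass the adjustment over 8 ratios (0.0529).

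Smad9 is a receptor-regulated Smad whose own transcription responds to BMP. Smad9 (NM_019483, chr3:54559504-54605191) was at 0.900, 0.910, 2.20, 0.987 and 1.23 RPKM in the AdCMV livers and at 4.34, 4.74, 4.12, 1.42 and 3.18 RPKM in the AdVEGF livers. AdCMV replicate 3 was above AdVEGF replicate 4, so the groups overlapped, while the other 4 AdVEGF mice were above all AdCMV mice. By limma Smad9 had a log2 fold change of 1.42 ± 0.33 (SE; adjusted p = 0.00519, limma), and 1.04 after scaling (adjusted p = 0.0210). Without any 1 mouse it was between 1.29 and 1.71 and was still called.

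Atoh8 encodes a basic helix-loop-helix factor that takes part in the control of hepcidin and in endothelial cells responds to BMP9 and BMP10. Atoh8 (NM_153778, chr6:72156172-72185571) was at 2.41, 3.28, 1.945, 4.24 and 6.06 RPKM in the AdCMV livers and at 10.2, 15.6, 11.1, 12.04 and 15.2 RPKM in the AdVEGF livers. The groups did not overlap. For Atoh8 the log2 fold change came to 1.90 ± 0.27 (SE; adjusted p = 6.45e-05, limma), or 3.73-fold, and 1.50 after scaling (adjusted p = 0.00535).

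Msx1 and Msx2 encode homeobox repressors that BMP induces in the limb, tooth and neural crest. They were the least abundant of the 10 genes in both groups, and Msx1 alone of the pair was called. Msx1 (NM_010835, chr5:38211730-38215824) was at 0.215, 0.269, 0, 0.220 and 0.090 RPKM in the AdCMV livers, from 0 to 7 reads, and at 1.29, 1.05, 0.556, 0.638 and 0.848 RPKM in the AdVEGF livers, from 6 to 15 reads. All AdVEGF mice were above all AdCMV mice. For Msx1 the log2 fold change was 2.00 ± 0.44 (SE; adjusted p = 0.00327, limma), and 1.64 after scaling (adjusted p = 0.0209). It depended on the pseudocount at so few reads, from 0.69 with a pseudocount of 1, where it was not called, to 2.97 with 0.01. The antisense transcript Msx1os overlaps Msx1 and held 0 to 4 reads in AdCMV and 6 to 12 reads in AdVEGF livers, so that the values of both are uncertain where strand was not used in counting.

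Msx2 (NM_013601, chr13:53562250-53568149) was at 0.320, 0.137, 0.823, 0.344 and 0.644 RPKM in the AdCMV livers and at 0.907, 0.811, 0.497, 0.228 and 0.551 RPKM in the AdVEGF livers. The groups overlapped over most of their range, from 4 to 14 reads in the former and from 4 to 13 in the latter. The log2 fold change was 0.39 ± 0.44 (SE; 95% interval −0.54 to 1.32; adjusted p = 0.527, limma), an interval that includes 0 and a rise as large as that of Id2. After scaling it was 0.08 (95% interval −0.77 to 0.94; adjusted p = 0.911, limma). A direct test of Msx1 against Msx2 was not made.

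**Figure D2:**
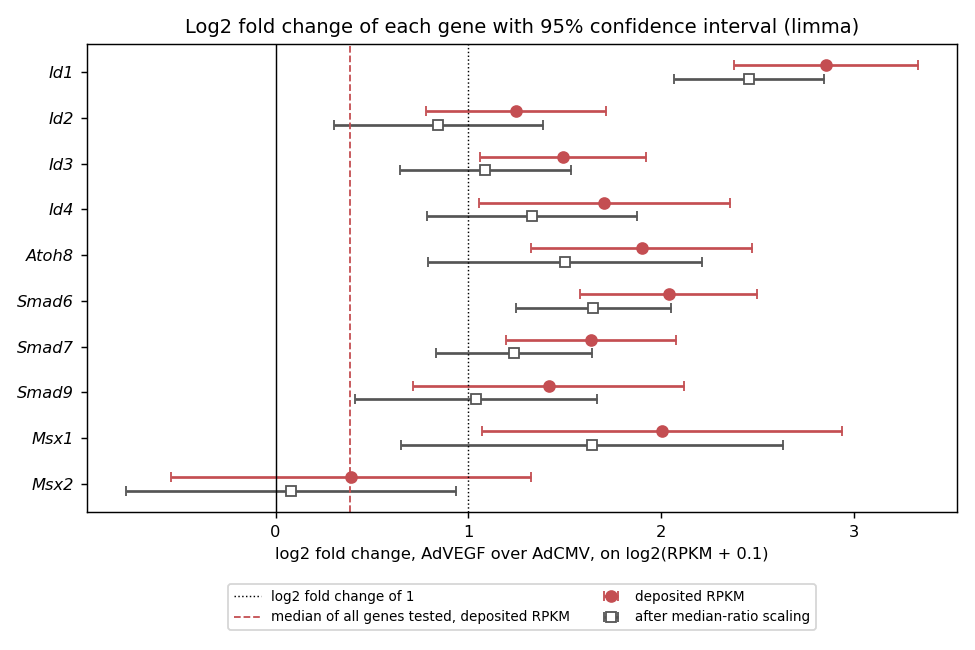
Log2 fold change of each gene (AdVEGF over AdCMV, 5 mice each) with its 95% confidence interval from limma, on deposited RPKM (filled circles) and after median-ratio scaling (open squares), with the median of all genes tested (dashed) and the limit of 1 (dotted). Id1 stands at 2.85, the other genes called between 1.25 and 2.04, and the interval of Msx2 crosses 0.

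Read in RPKM, the order of the levels in AdCMV livers was Id2 (156 ± 25.0, mean ± SD), Id3 (105 ± 14.8) and Id1 (10.8 ± 2.67), each apart from the next in all 5 mice. Below them Smad7 (4.09 ± 1.01), Atoh8 (3.59 ± 1.64), Smad6 (2.02 ± 0.403), Smad9 (1.24 ± 0.549), Id4 (0.783 ± 0.282), Msx2 (0.454 ± 0.275) and Msx1 (0.159 ± 0.111) followed, and each overlapped in range with its neighbour. In AdVEGF livers Id2 (378 ± 106) and Id3 (299 ± 60.9) overlapped, while Id1 (78.8 ± 18.4) was apart from both. Atoh8 (12.8 ± 2.44) and Smad7 (12.7 ± 1.35) overlapped, as did Smad9 (3.56 ± 1.33) and Id4 (2.83 ± 0.999). Smad6 (8.63 ± 1.66) stood between these pairs, below Smad7 and above Smad9 without overlap, though its highest mouse was above the lowest value of Atoh8. Msx1 (0.877 ± 0.301) and Msx2 (0.599 ± 0.269) were the lowest and overlapped, in the reverse order of the AdCMV livers.

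Most endothelial and stellate cell markers rose as these genes did, while most Kupffer cell, cholangiocyte, T and NK cell markers were not called higher. The part of these cells in the results was not tested. The ratios to endothelial markers given next compare mRNA levels and do not count cells. All 14 pan-endothelial markers, among them Pecam1, Cdh5 and Kdr, were upregulated, with a median log2 fold change of 2.68 and a summed level of 40.5 to 78.3 RPKM in AdCMV and 350.04 to 457 RPKM in AdVEGF livers. Of 10 stellate cell markers 9 rose (median 1.80, sum 77.2 to 127 against 194 to 375 RPKM). Among these 9, Hand2 was tested only through its AdVEGF mean. Of 8 sinusoidal endothelial markers 6 rose (median 1.69, sum 58.6 to 98.1 against 173 to 253 RPKM). The other 2 sinusoidal markers, Dnase1l3 (−0.98, adjusted p = 0.00424, limma) and F8 (−0.89, adjusted p = 0.0150), were lower in every AdVEGF mouse than in any AdCMV mouse, and after scaling both were called lower (−1.37 and −1.29). Of 10 Kupffer cell markers 3 were higher (0.75; 119.6 to 249 against 239 to 365 RPKM), and of 3 B cell markers 2, of which Ms4a1 was tested only through its AdVEGF mean (1.74; 0.441 to 1.59 against 2.385 to 7.16 RPKM). Of 4 cholangiocyte markers tested 1, Spp1, which other cells express too, was higher (median 0.69). The sum over the 6 cholangiocyte markers listed (24.2 to 53.7 against 281 to 726 RPKM) was mostly Spp1. The mean of Spp1 was 35.2 RPKM in AdCMV and 531 RPKM in AdVEGF livers. Of 6 T and NK cell markers tested 5 were lower (−1.35; 8.50 to 34.2 against 6.30 to 12.9 RPKM). Of 9 hepatocyte markers 2, Alb and Apoa1, were called higher (median 0.42), and none after scaling. Of 12 proliferation genes 2 were called higher (0.83; 62.1 to 175 against 123 to 202 RPKM), and none after scaling. No marker list had a defining gene at 0 in every AdCMV library.

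Set against the mean log2 level of the 14 pan-endothelial markers in the same library, Id1 was at 1.90, 2.36, 1.66, 1.76 and 1.40 in the AdCMV livers and at 1.39, 2.06, 2.21, 2.02 and 1.91 in the AdVEGF livers. The groups overlapped, and the difference was 0.10 (95% interval −0.41 to 0.56; exact p = 0.659, adjusted 0.659). Id3 on the same scale was at 5.52, 5.58, 4.51, 5.40 and 4.53 in the AdCMV livers and at 3.91, 4.01, 4.03, 3.93 and 3.35 in the AdVEGF livers, lower in all 5 mice, with a difference of −1.26 (−1.86 to −0.55; exact p = 0.00794, adjusted 0.0127). Smad6 and Smad7 were lower relative to these markers as well. Their differences were −0.71 (−1.16 to −0.27) and −1.12 (−1.57 to −0.70), each with an exact p of 0.00794, 0.0127 adjusted, and no overlap of the groups. Id3, Smad6 and Smad7 thus rose less than the mean of the 14 markers, though not less than each of them, since Tek (1.43) and Ptprb (1.41) had smaller log2 fold changes than all 3. For Id1 a difference from that mean was not detected within its interval.

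**Figure D3:**
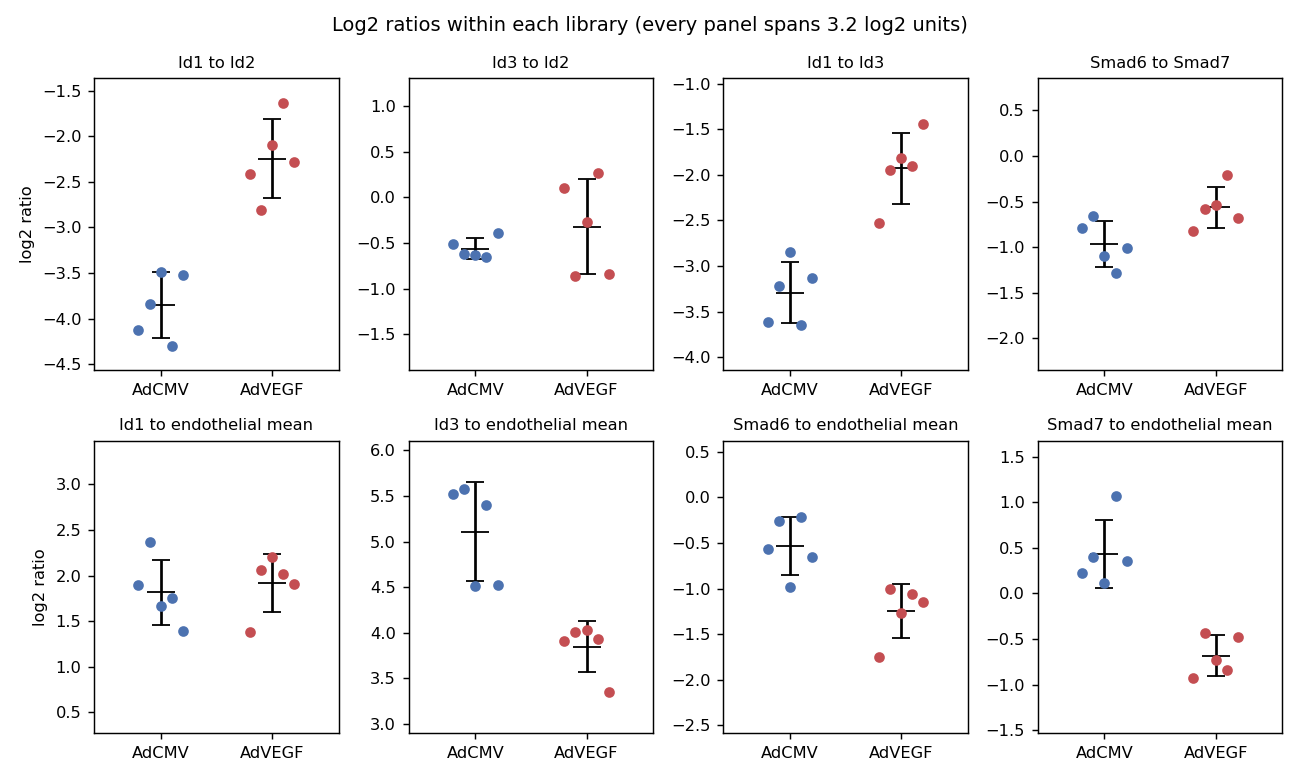
Log2 ratios within each library for the 8 pairs compared, per mouse (points) with the mean and SD of 5 mice; the endothelial mean is that of log2(RPKM + 0.1) over 14 pan-endothelial markers, and every panel spans the same log2 range. Id1 gains on Id2 and Id3 in all 5 AdVEGF mice but not on the endothelial mean, against which Id3, Smad6 and Smad7 lie lower in AdVEGF livers without overlap.

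Upstream of these genes, 5 of the 6 BMP ligands tested were higher in AdVEGF livers (median log2 fold change 1.57, against 0.38 for all genes). Bmp6, the main ligand of hepcidin control, had a log2 fold change of 2.21 ± 0.46 (SE; adjusted p = 0.00199, limma), and Bmp2 of 2.08 ± 0.23 (adjusted p = 3.88e-06). Gdf2, which encodes BMP9 (1.39), Bmp10 (1.75) and Bmp5 (1.10) were also called, and after scaling Bmp2, Bmp6 and Gdf2 were. Bmp6, with 3 to 14 reads in AdCMV livers, and Bmp10, with 0 to 3, passed the limit on low values only through their AdVEGF mean, and Bmp10 was called in 12 of 21 alternatives. Bmp5, whose groups overlapped, was called in 12 of 22 alternatives. Bmp4 was at 1.22 ± 0.399 RPKM (SD) in AdCMV and 1.32 ± 0.466 in AdVEGF livers (log2 fold change 0.10, adjusted p = 0.821), and Bmp7 was under the limit on low values. Bmp2, Bmp6, Bmp10, Gdf2, Bmper, Bambi and Eng are also genes that the study named from these samples, so their direction is not independent evidence either.

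Of 7 receptors tested 3 were higher (median 0.93). These were Acvrl1, the gene of ALK1 (1.49), the type II receptor Bmpr2 (1.13) and the co-receptor Eng (1.50), and Bmpr2 was lost after scaling (0.75). Bmpr1a, the gene of the type I receptor ALK3, was at 5.91 ± 2.37 RPKM in AdCMV and 4.83 ± 0.619 in AdVEGF livers (log2 fold change −0.21, adjusted p = 0.526, limma). After scaling its log2 fold change was −0.61 (adjusted p = 0.00568, limma), which passed the threshold on p but not that on fold change. Acvr1, Acvr2a and Acvr2b were not called, and Bmpr1b was at 0 in all libraries.

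None of the 5 genes Smad1 to Smad5 was called (median 0.66). Smad1, with 0.86 ± 0.21 (SE; adjusted p = 0.00735, limma), and Smad5, with 0.81 ± 0.24 (adjusted p = 0.0210), passed the threshold on p but not that on fold change. Among the Smad genes the calls were thus those of Smad6, Smad7 and Smad9. Of 6 inhibitors of BMP signaling tested 2 were higher (median 0.56), the pseudoreceptor Bambi (1.74, adjusted p = 0.000378) and Bmper (1.25, adjusted p = 0.0281, limma), the latter tested only through its AdVEGF mean and not called after scaling. The extracellular modulator Twsg1 (−0.07) and the ubiquitin ligases Smurf1 (0.47) and Smurf2 (0.65) were not called.

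Of 5 other target genes of the pathway 3 were tested, and all 3 were higher, 2 of them also after scaling. Hey2 (mean 0.0806 RPKM in AdCMV and 0.464 in AdVEGF livers, no overlap) and Tmem100 (0.0636 and 0.0956, overlapping) were under the limit on low values. Hamp, the gene of hepcidin in hepatocytes, was at 761 ± 186 RPKM (SD) in AdCMV and 2806 ± 757 in AdVEGF livers, a log2 fold change of 1.88 ± 0.26 (SE; adjusted p = 4.11e-05, limma), with no overlap of the groups. Its near-identical neighbour Hamp2, whose reads may be split with Hamp, had 1.35 and was not called after scaling. Hey1, a target of Notch as well as of ALK1, was at 0.0582 ± 0.0380 RPKM in AdCMV livers, from 0 to 3 reads, and at 6.98 ± 1.23 in AdVEGF livers. It passed the limit on low values only through its AdVEGF mean, and its fitted log2 fold change of 5.50 depends on the pseudocount. Of 7 target genes of the TGFβ branch described here 3 were higher (median 0.94), namely Pmepa1 (1.99), Ctgf (2.14) and Cdkn2b (2.24). Cdkn2b had 0 to 8 reads in AdCMV livers and was tested only through its AdVEGF mean, and its log2 fold change lay between 0.84 and 3.22 over the alternatives.

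The partners of the Id proteins rose in part. Tcf4, which encodes the E protein E2-2 of endothelial cells, was at 6.56 ± 1.30 RPKM (SD) in AdCMV and 29.4 ± 4.60 in AdVEGF livers, a log2 fold change of 2.15 ± 0.20 (SE; adjusted p = 5.76e-07, limma). Tcf3, which encodes E12 and E47, had 1.47 ± 0.24 (adjusted p = 0.000223), and both were called after scaling too. Tcf12 had 0.88 ± 0.23 (adjusted p = 0.0114) and was not called.

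**Figure D4:**
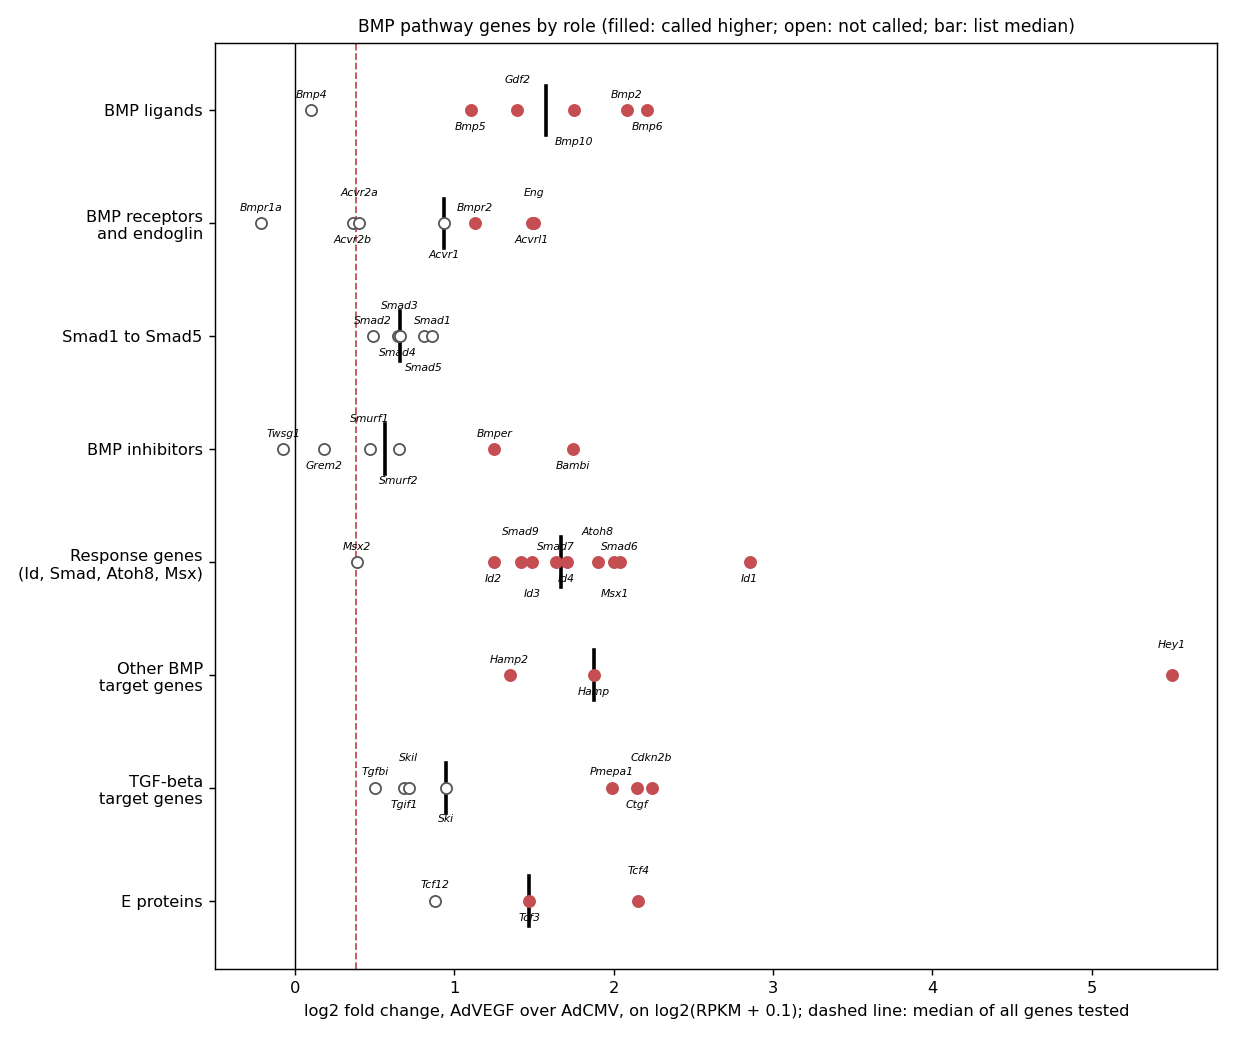
Log2 fold change (AdVEGF over AdCMV) of the genes tested in each list of the BMP pathway, by role (filled, called higher; open, not called), with the list median (bar) and the median of all genes tested (dashed line). The response genes lie between 0.39 and 2.85 and Smad1 to Smad5 between 0.49 and 0.86.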

How the data were processed

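Liver RNA-Seq of 10 mice was analysed. Per the methods and the submitters' processing notes, the authors mapped reads with TopHat to mm9 and used HOMER, and they deposited RPKM values for RefSeq transcripts in each mouse, normalized to the library total only. The annotation version and use of strand are not given in the sources used here. The deposited log fold changes and FDR of the authors' own comparison were not used, and 5 transcripts without a symbol were left out.

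Reads behind each value were recovered from the steps of the RPKM values (99.8334% to 99.9875% whole within 0.02 reads plus rounding). Read numbers and depth limits account for counting noise alone. Groups were compared by limma 3.58.1 in R 4.3.3 (lmFit, trended eBayes) on log2(RPKM + 0.1) for genes averaging over 0.5 RPKM in either group, with Benjamini-Hochberg adjustment over all genes tested. Ratios were compared in Python 3.11.15 with two-sided exact permutation tests, inverted for 95% intervals. Procedures were tested on simulated data. The alternatives were 3 scalings, 2 pseudocounts, 2 filters, treat, voom on recovered reads with and without scaling, 1 row per symbol, a replicate block and leaving out each mouse. Named genes were the 10 members, the pathway and marker lists, and the 3 genes most correlated with each member. 2 listed genes are not reported here. Members and lists were chosen with earlier results of these data known. Libraries of a group differed by at least 12.4 times the counting variance, so none was a resequenced copy of another library. This check cannot show whether separate libraries came from the same mouse. Promoter sequences (RefSeq, GRCm38.p6) were not joined to the mm9 coordinates of the table.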

Additional observations from a re-analysis of the deposited data

Results flagged for a closer look

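In 36 groups of 5 mice (the 10 genes and the 8 ratios in both groups), the highest or lowest mouse was compared with the others by Dixon's test, and 2 stood apart. Chance flags about 1 in 20 groups. Smad9 in AdCMV replicate 3 was at 2.20 RPKM, and its gap to the next mouse was 0.747 of the group's range, against a critical value of 0.71. The log2 ratio of Id3 to the pan-endothelial mean in AdVEGF replicate 5 was 3.35, with a gap of 0.829 of the range. The Mup share was lowest among AdCMV libraries in replicate 3 (18.0%) and highest among AdVEGF libraries in replicate 5 (28.6%), and the part of this in either value was not tested.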

How the results depend on the processing

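Id1 and Smad6 were called higher under all 22 alternatives, Id4, Smad7 and Atoh8 under 21, Id3 and Msx1 under 20, Smad9 under 19, Id2 under 17 and Msx2 under none. No member was called lower in any. With treat, whose null is any log2 change up to 1, 2 members were called (Id1 and Smad6). Median-ratio or upper quartile scaling called 8 members, pseudocount 1 called 7, and totals without the Mup genes called 6, where Id2, Id3 and Smad9 were under the fold limit and Msx2 turned to −0.0017. Leaving out any mouse gave 9. Over all genes, 1808 were called higher and 214 lower, 89.4% of the calls being higher. The counts of higher and lower calls were 1055 and 444 (70.4% higher) with median-ratio scaling, 1099 and 397 with upper quartile scaling, 1009 and 571 without the Mup genes, 954 higher with pseudocount 1, 503 and 36 with treat, and 1135 and 477 with voom and scaling. Leaving out 1 mouse gave 1425 (without AdCMV replicate 4) to 2357 (without AdCMV replicate 3) higher and 178 to 225 lower.

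The ratio of Smad6 to Smad7 lost its unadjusted call under 7 of 12 alternatives, with a difference of 0.22 at pseudocount 1 and of 0.32 to 0.48 without 1 mouse. The ratio of Id1 to the pan-endothelial mean ranged from −0.0033 (without AdCMV replicate 5) to 0.24 without 1 mouse and was 0.38 (exact p = 0.103) at pseudocount 1, against 0.10 as reported. The other 6 ratios kept their direction and side of the threshold. The labels do not say that a replicate number marks shared mice or days, and same-numbered mice correlated at 0.036, 0.109, 0.0076, 0.096 and 0.291, positive in all 5 pairs but not over 0.1 in each, so the number was not treated as a pairing. The best AdVEGF partner had the same number for 3 of 5 AdCMV mice (1, 4 and 5), a hint from the data and not from the design. With the replicate number as a block, 9 members and 1933 higher and 256 lower genes were called. Id4, Msx1 and Msx2 rest on 0 to 48 reads per mouse, which limits the precision of their values.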

Other observations

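Among mice of a group the 10 genes varied in different directions. After median-ratio scaling and subtraction of the group means, the correlation over the 10 libraries had a median of 0.24 over 45 pairs of members, from −0.79 for Id1 and Msx2 to 0.86 for Smad7 and Atoh8, and was negative for 16 pairs. The points share depth and composition of the libraries, and Msx2 rests on few reads.

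On the same measure, the genes most like Id1 among all genes tested were 1810026B05Rik (0.93), 2310022B05Rik (0.89) and Pcbp3 (0.89). For Id2 they were Arl4a (0.93), Slc39a8 (0.90) and Tab2 (0.90), and for Id3 Tmem134 (0.98), Ap2s1 (0.96) and Btd (0.95). For Id4 they were Glud1 (0.92), Apbb1ip (0.91) and Ocrl (0.91). For Smad6 they were Sppl2b (0.92), Lins1 (0.90) and Klhdc3 (0.90), and for Smad7 Il4i1 (0.94), Gzf1 (0.93) and Crot (0.93). Smad9 was most like Gm8989 (0.98), Gm8979 (0.98) and Gm18853 (0.97), and Atoh8 like Shkbp1 (0.93), Mapkbp1 (0.92) and Zdhhc9 (0.92). For Msx1 they were Dhrs3 (0.95), Apoc1 (0.94) and Sco2 (0.94), and for Msx2 Arhgap32 (0.96), Usp38 (0.95) and Brwd1 (0.94). Of these 30 genes, Shkbp1 and Pcbp3 were called higher in AdVEGF livers by limma.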
